A study of Danio rerio with 23 samples.

Results

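The genes described here encode the protein components of the cytosolic ribosome in the early zebrafish embryo. They were taken by name: every row whose symbol begins with rpl or rps and a number, together with rplp0, rplp1, rplp2 and rpsa, and without the ribosomal S6 kinases, whose symbols begin with rps6k. This gave 84 rows of the 31743 genes in the deposited tables. By their names, 35 were assigned to the small subunit and 48 to the large subunit, without a check of each product. The remaining row, rps19bp1, encodes a nucleolar protein that binds the product of rps19 and is not itself a ribosomal protein. It was kept because its name meets the rule. Among the large subunit rows, rpl9_1 and rpl37_1 carry the symbols RFC1 and COA1 in a second source of gene names, so their identity is uncertain. All 84 rows passed the filter on low counts, which left 19504 genes for testing, and 82 of them had a mean of at least 10 CPM (counts scaled to library size). The name rule itself uses no measured value.

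Ribosomal proteins assemble with ribosomal RNA in the nucleolus into a small subunit, which decodes the mRNA, and a large subunit, which forms the peptide bond. The mRNAs for these proteins are among the most abundant in growing cells. In vertebrates they begin with a terminal oligopyrimidine (TOP) tract, through which their translation follows nutrient and growth signals. A fish egg is loaded with maternal ribosomes and maternal mRNA, and the embryo begins to replace the maternal mRNA with its own transcripts at the mid-blastula transition, before gastrulation.

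RNA-seq libraries came from whole embryos at 2 times given in the titles as 5.5 and 7.5 hours post fertilisation (hpf), for which the time-point labels give 5 and 7 hpf. Parents heterozygous for hs:dkk1b, in which a heat-shock promoter drives the secreted Wnt antagonist dkk1b, or for hs:wnt8a, in which it drives the Wnt ligand wnt8a, were mated with wild-type fish. Embryos were heat shocked in tubes of 10, at 37 °C for 60 minutes in hs:dkk1b crosses and at 39 °C for 30 minutes in hs:wnt8a crosses, and recovered at 29 °C. Within each cross, transgenic embryos (hs:dkk1b/+ or hs:wnt8a/+), recognised by fluorescence, were set against siblings labelled genotypically wild type, which had received the same heat shock. There were 8 groups of 3 libraries, except hs:wnt8a transgenic embryos at 5.5 hpf with 2, and no group without heat shock is in the samples used here. Embryos came from several mating pairs, but nothing says that the libraries of a group were separate clutches. The p-values then describe only how these libraries vary, and part of that may be technical.

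The 23 libraries held 13845788 to 20467185 counts. Markers of the gastrula embryo were counted in every library (10 of 10 genes, summed at 1064 to 2256 CPM), as were all 8 markers of the enveloping layer, all 5 of the yolk syncytial layer and all 5 of germ cells, none of which was at 0. The transgenes did not follow the labels everywhere. dkk1b stood at 2292 to 19063 CPM in hs:dkk1b transgenic libraries and at 17.3 to 55.2 CPM in their siblings. The row wnt8a_1 stood at 2664 to 4218 CPM in hs:wnt8a transgenic libraries and at 3.14 to 9.56 CPM in all libraries of the hs:dkk1b crosses. In libraries labelled siblings of hs:wnt8a it reached 392 to 721 CPM in all 3 at 5.5 hpf and 179.7 CPM in replicate 1 at 7.5 hpf, against 2.33 and 14.8 CPM in replicates 2 and 3. These groups are called labelled siblings below. Some results at 7.5 hpf are also given without that replicate, but most values of single genes, shares and other lists include it. At 5.5 hpf no library could be left out for this reason. In the hs:dkk1b cross at 7.5 hpf, replicate 1 of the siblings and of the transgenic embryos also stood apart, with the inducible chaperone gene hsp70l at 1228 and 2654 CPM against 40.7 to 543 CPM in all other libraries.

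Per length, most members stood far above the median over all genes. By the authors' deposited TPM, levels scaled to gene length and library, the median member stood at 639.7 TPM in hs:dkk1b siblings at 5.5 hpf and at 1053 TPM at 7.5 hpf, and at 539.8 and 921 TPM in labelled hs:wnt8a siblings. The median over all genes was between 0.781 and 1.07 TPM in the 8 groups. In every group 77 to 80 of the 84 rows had a mean of at least 100 TPM. Over the 23 libraries the highest mean levels were 2728 TPM for both rpl32 and rps20, 2620 TPM for rps14, 2485 TPM for rps7 and 2330.0 TPM for the stalk protein gene rplp0. Levels spread widely, down to 229 TPM for rps19, 182 TPM for rpl35a and 123 TPM for rpl22. At the bottom were rps19bp1 at 56.8 TPM, rpl9_1 at 11.5 TPM, and rpl37_1 and rps8b at 1.49 TPM each.

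To examine the stage change, the summed counts of the 84 rows were first taken as a share of all counts in each library. In hs:dkk1b siblings the share was 3.13%, 2.72% and 3.23% at 5.5 hpf and 5.11%, 5.55% and 5.09% at 7.5 hpf, means of 3.03% ± 0.268 (SD, n = 3) and 5.25% ± 0.264 (SD, n = 3). For labelled hs:wnt8a siblings it was 2.41%, 2.88% and 2.47% at 5.5 hpf and 4.47%, 4.49% and 4.41% at 7.5 hpf, means of 2.59% ± 0.259 (SD, n = 3) and 4.46% ± 0.0412 (SD, n = 3). In both crosses every library at 7.5 hpf lay above every library at 5.5 hpf, and the means differed 1.73-fold and 1.72-fold. The transgenic embryos showed the same separation, from 3.09% to 4.95% in hs:dkk1b (1.60-fold) and from 2.32% to 4.48% in hs:wnt8a (1.93-fold). The 74 mitochondrial ribosomal protein genes together took 0.128% and 0.162% of the counts at these times in hs:dkk1b siblings (1.26-fold) and 0.115% and 0.163% in labelled hs:wnt8a siblings (1.41-fold). In whole embryos, a change in the number of cells of a type and a change in RNA per cell cannot be told apart. Every embryo was heat shocked, so development and a response to the heat shock cannot be told apart in the stage changes either. The 20 tested chaperone genes had median log2 fold changes of 0.43 in hs:dkk1b siblings and −0.44 in labelled hs:wnt8a siblings between the times. Their part in the members' change was not tested.

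**Figure D1:**
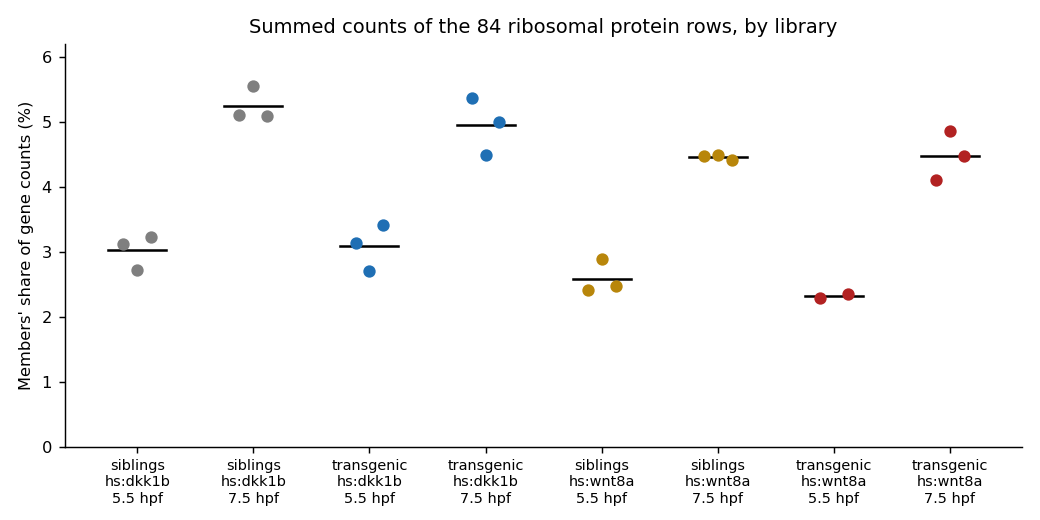
Summed counts of the 84 rows as a percentage of all gene counts, one point per library and a bar at the group mean, by cross, genotype and time. All 11 libraries at 5.5 hpf lie between 2.29% and 3.42%, and all 12 at 7.5 hpf between 4.10% and 5.55%.

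Maternal transcripts were lower at 7.5 hpf in the same libraries. The 11 tested of 13 listed maternal genes, none of which was at 0 in any library, summed to 72.6 to 183 CPM in hs:dkk1b siblings at 5.5 hpf and to 30.1 to 46.6 CPM at 7.5 hpf, and to 104 to 156 and 23.4 to 40.2 CPM in labelled hs:wnt8a siblings. By edgeR, 5 and 8 of the 11 were lower at 7.5 hpf in these crosses, against 15.4% and 18.4% of all genes. In the hs:dkk1b cross at 5.5 hpf, replicate 2 had the highest maternal sum in siblings (183 CPM) and in transgenic embryos (172 CPM), and the lowest member share in both, 2.72% and 2.71%. At 7.5 hpf in that cross the highest maternal sum went with the highest share instead. This was replicate 2 of the siblings (46.6 CPM, 5.55%) and replicate 1 of the transgenic embryos (37.9 CPM, 5.37%). The hs:wnt8a cross was mixed in this respect. The 5 germ cell markers summed to 163 to 347 CPM at 5.5 hpf and to 54.9 to 70.7 CPM at 7.5 hpf in hs:dkk1b siblings, and to 211 to 313 and 48.0 to 92.2 CPM in labelled hs:wnt8a siblings. The high sums came mostly from ddx4, which ranged from 23.1 to 310 CPM over all libraries. tdrd7a reached at most 35.8 CPM, and nanos3, dnd1 and ca15b less. The summed yolk syncytial layer markers stood at 482 to 809 and at 938 to 1044 CPM in hs:dkk1b siblings, and at 526 to 573 and 714 to 828 CPM in labelled hs:wnt8a siblings. The difference in these sums came largely from apoa1a, an apolipoprotein gene, which rose in both crosses. Of the 5 markers 2 were higher and 1 lower in each, with medians of 0.29 and −0.33 on the log2 scale. Over all genes 15.6% and 21.8% were higher in these crosses, and 15.4% and 18.4% lower. The part of these lists in the members' change was not tested.

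Gene by gene, the rise extended to nearly the whole ribosome. In the edgeR quasi-likelihood fit over all genes, 77 of the 84 rows were higher at 7.5 hpf in hs:dkk1b siblings at a Benjamini-Hochberg (BH) adjusted p below 0.05 and 0 were lower, where 15.6% of all 19504 genes tested were higher. In labelled hs:wnt8a siblings 77 rows were again higher and 0 lower, against 21.8% of all genes, and 73 were higher without replicate 1 at 7.5 hpf. The median log2 fold change of the members was 0.69 in hs:dkk1b siblings (quartiles 0.63 and 0.74), a 1.61-fold rise, and 0.57 in labelled hs:wnt8a siblings (quartiles 0.47 and 0.66). Over all genes the medians were 0.04 in both crosses, with quartiles of −0.43 and 0.55 and of −0.50 and 0.61, so that the members lay close together in the upper part of a wide distribution. The 3 libraries at each time did not overlap and were higher at 7.5 hpf for 79 rows in hs:dkk1b siblings and 77 in labelled hs:wnt8a siblings, as for 24.1% and 25.9% of all genes. Higher in both crosses were 76 rows, against 11.6% of all genes, and 72 rows were higher in siblings and transgenic embryos of both crosses, against 8.43%.

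Both subunits took part. Of the 35 small subunit rows 32 rose in hs:dkk1b siblings (median log2 fold change 0.68) and 33 in labelled hs:wnt8a siblings (0.58). Of the 48 large subunit rows 45 and 44 rose (0.69 and 0.57). In transgenic embryos 73 rows were higher at 7.5 hpf in hs:dkk1b, with a median log2 fold change of 0.57 and 15.1% of all genes higher, and 77 in hs:wnt8a, with a median of 0.75 and 21.5% of all genes higher. In hs:dkk1b transgenic embryos 63 to 75 rows passed the threshold as single libraries were left out. The count was 64 without replicate 1 at 7.5 hpf, one of the libraries with high hsp70l, and 63 without replicate 2 at 5.5 hpf, which was not one of them.

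The stalk of the large subunit, which recruits the translation factors that drive elongation, is built from the products of rplp0, rplp1 and rplp2 on a base that includes the product of rpl12. rplp0 stood at 954, 685 and 887 CPM in hs:dkk1b siblings at 5.5 hpf and at 1538, 1541 and 1420.4 CPM at 7.5 hpf. Labelled hs:wnt8a siblings had 698, 973 and 736 CPM and then 1515, 1279 and 1301 CPM. No library at 5.5 hpf reached those at 7.5 hpf in either cross, and the log2 fold changes were 0.83 ± 0.15 (SE, edgeR BH-adjusted p = 0.000572) and 0.77 ± 0.15 (SE, BH-adjusted p = 0.000691). rplp1 changed by similar amounts, 0.82 and 0.74. rplp2 had the largest rise of any member in hs:dkk1b siblings, from 67.1, 52.8 and 62.0 CPM to 125, 138 and 107 CPM (log2 fold change 1.02 ± 0.16 SE, BH-adjusted p = 0.000143). In labelled hs:wnt8a siblings rplp2 went from 55.9, 67.7 and 64.8 CPM to 105, 76.6 and 91.6 CPM, without overlap but with a smaller log2 fold change of 0.54 ± 0.15 (SE, BH-adjusted p = 0.0101). The row rplp2l, of similar name but not taken by the rule, was more abundant, with a mean of 290 CPM over the 23 libraries. It had log2 fold changes of 0.80 in hs:dkk1b siblings and 0.65 in labelled hs:wnt8a siblings.

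rpl12 did not pass the threshold in either sibling group. It stood at 730.1, 752 and 716 CPM at 5.5 hpf and at 833, 965 and 849.6 CPM at 7.5 hpf in hs:dkk1b siblings, a log2 fold change of 0.27 ± 0.12 (SE, edgeR BH-adjusted p = 0.0854) although the libraries did not overlap. The labelled hs:wnt8a siblings had values of 617, 748 and 658 CPM and then 847, 642 and 638 CPM. Here the times overlapped and the log2 fold change was 0.07 ± 0.12 (SE, BH-adjusted p = 0.649). With scaling to total counts alone, which also moved the median of all genes up to 0.16 and 0.27, rpl12 passed the threshold in both crosses (log2 fold changes 0.39 and 0.29), and without replicate 1 at 7.5 hpf its value in labelled hs:wnt8a siblings was −0.08.

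Among proteins of the large subunit core, rpl3, whose product lies near the peptidyl transferase centre, went from 838, 729 and 916 CPM to 1460.2, 1811 and 1484 CPM in hs:dkk1b siblings. Its values in labelled hs:wnt8a siblings went from 880.2, 939 and 892 CPM to 1404, 1282 and 1252 CPM. The times were well apart in both, with log2 fold changes of 0.94 ± 0.12 (SE, edgeR BH-adjusted p = 4.18e-05) and 0.54 ± 0.12 (SE, BH-adjusted p = 0.00194). The genes for proteins at the exit of the peptide tunnel, rpl23a, rpl26 and rpl39, rose by 0.74, 0.69 and 0.81 on the log2 scale in hs:dkk1b siblings and by 0.63, 0.60 and 0.71 in labelled hs:wnt8a siblings. rpl10, whose product joins the large subunit late in its assembly, rose by 0.63 and 0.46, and rpl36a by 0.76 and 0.64.

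The largest rises that recurred in every genotype and cross were those of rpl22, rpl35a, rplp0, rpl34 and rpl5a, the 5 members placed among the top 20 in all 4 stage comparisons. rpl22 encodes an RNA-binding protein on the outer face of the large subunit. It stood at 138, 114 and 148 CPM and then at 257, 297 and 253 CPM in hs:dkk1b siblings, and at 109, 119.9 and 117 CPM and then at 229, 222 and 222 CPM in labelled hs:wnt8a siblings. The times were apart, by 2.02-fold and 1.95-fold, with log2 fold changes of 1.01 ± 0.15 (SE, edgeR BH-adjusted p = 0.000104) and 0.96 ± 0.15 (SE, BH-adjusted p = 8.7e-05). rpl35a, one of the genes mutated in Diamond-Blackfan anaemia in humans, went from 225, 193 and 225 CPM to 363, 421 and 369.7 CPM, and from 164, 161 and 180.0 CPM to 299, 291 and 293 CPM. These libraries did not overlap between times either, and the log2 fold changes were 0.84 ± 0.11 (SE, BH-adjusted p = 4.91e-05) and 0.81 ± 0.11 (SE, BH-adjusted p = 3.68e-05). rpl34 rose by 0.84 and 0.90 on the log2 scale, rpl13a by 0.66 and 0.81 and rpl36 by 0.77 and 0.80.

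**Figure D2:**
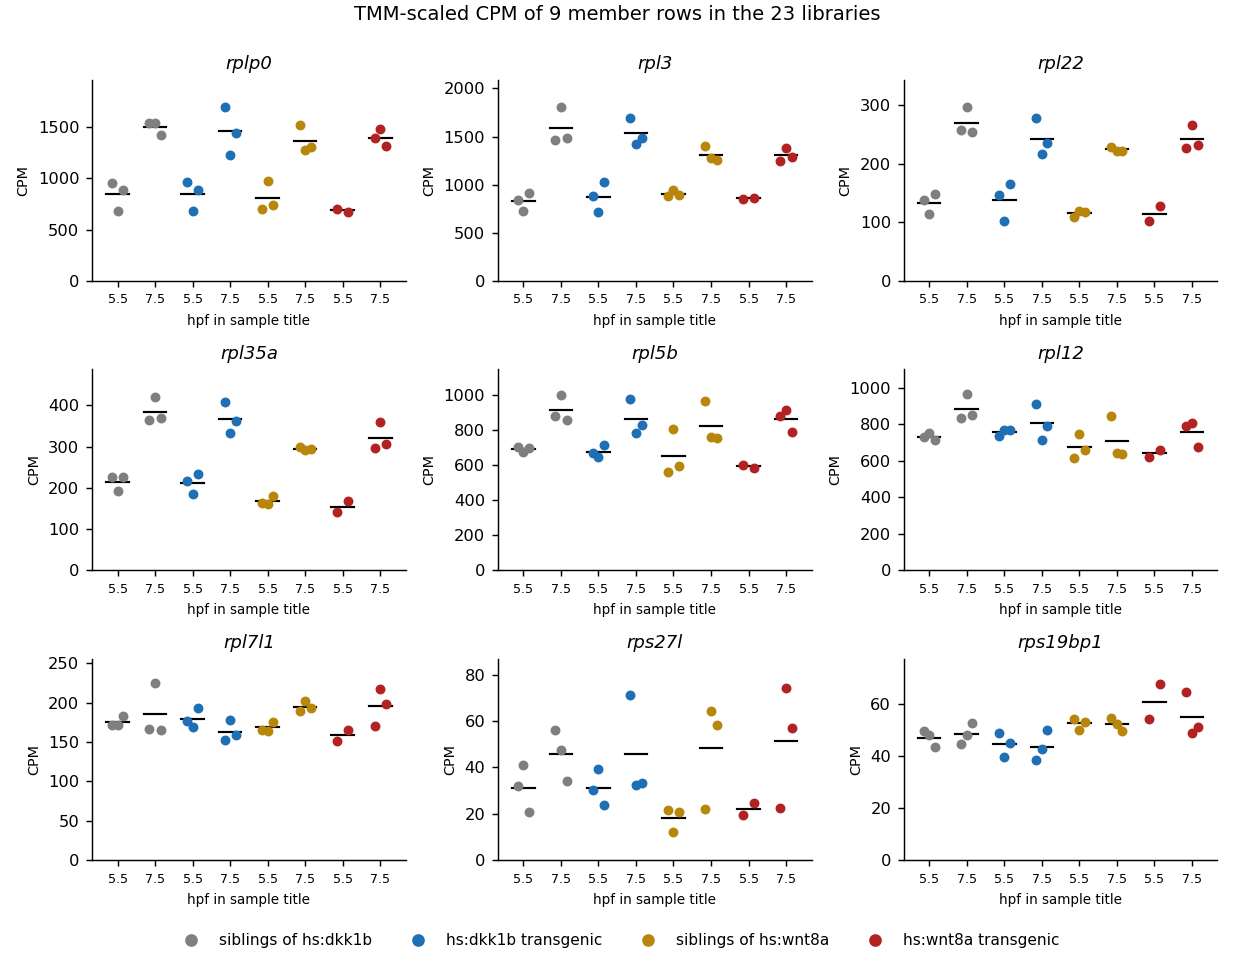
TMM-scaled CPM of 9 rows in each of the 23 libraries, one panel per gene, with time on the horizontal axis, colour for cross and genotype and a bar at the group mean. rplp0, rpl3, rpl22 and rpl35a separate the times in every cross and genotype, rpl5b and rpl12 overlap between times in labelled hs:wnt8a siblings, rpl7l1 in hs:dkk1b siblings, and rps19bp1 throughout.

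In the small subunit, rps6, whose product is phosphorylated by the S6 kinases, went from 665, 586 and 674 CPM to 1031, 1151 and 976 CPM in hs:dkk1b siblings and from 546, 594 and 565 CPM to 898, 869.9 and 879 CPM in labelled hs:wnt8a siblings. The times did not overlap, and the log2 fold changes were 0.71 ± 0.10 (SE, edgeR BH-adjusted p = 9.6e-05) and 0.63 ± 0.10 (SE, BH-adjusted p = 0.000135). rps3, whose product lines the mRNA entry channel, rose by 0.71 and 0.69, and rpsa, also known as the laminin receptor gene, by 0.64 and 0.50. rps19, the gene most often mutated in Diamond-Blackfan anaemia in humans, rose by 0.68 and 0.56. rps14, lost in the human 5q deletion syndrome, went from 469.7, 468 and 479.9 CPM to 671, 761 and 639 CPM in hs:dkk1b siblings (log2 fold change 0.55, adjusted p = 0.00105) and from 419, 465 and 460.2 CPM to 667, 572 and 554 CPM in labelled hs:wnt8a siblings (0.42, adjusted p = 0.00517). Both rps14 and rps20, which were among the 3 most abundant members, lay among the last 20 in the order of change in all 4 stage comparisons. rps2, whose product also lies at the mRNA entry channel, differed widely between replicates at 5.5 hpf in hs:dkk1b siblings, at 313, 431 and 575 CPM, and stood at 651, 981 and 952 CPM at 7.5 hpf (log2 fold change 0.97 ± 0.20 SE, BH-adjusted p = 0.00167).

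A few rows did not pass the threshold. rpl12, rpl7l1, rpl37_1, rps8b and rps19bp1 passed it in none of the 4 stage comparisons. rps19bp1, whose product is no ribosomal protein, had log2 fold changes of 0.04 and −0.01, and the identity of rpl37_1 is uncertain. Whether the product of rpl7l1 is part of the mature ribosome was not checked. rps27l, which in humans is a target of p53, passed in labelled hs:wnt8a siblings, where it went from 21.6, 11.9 and 20.8 CPM to 22.2, 64.3 and 58.2 CPM (log2 fold change 1.42 ± 0.43 SE, BH-adjusted p = 0.0139). Replicate 1 at 7.5 hpf, the library with wnt8a_1 signal, was near the level of 5.5 hpf. In hs:wnt8a transgenic embryos at 7.5 hpf replicate 1 was likewise low, at 22.5 CPM against 74.3 and 57.0 CPM, whereas in hs:dkk1b transgenic embryos it was high, at 71.3 CPM against 32.6 and 33.5 CPM. The call was lost without replicate 2 at 5.5 hpf (adjusted p = 0.0586) or without replicate 2 or 3 at 7.5 hpf (adjusted p = 0.0678 and 0.0509).

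**Figure D3:**
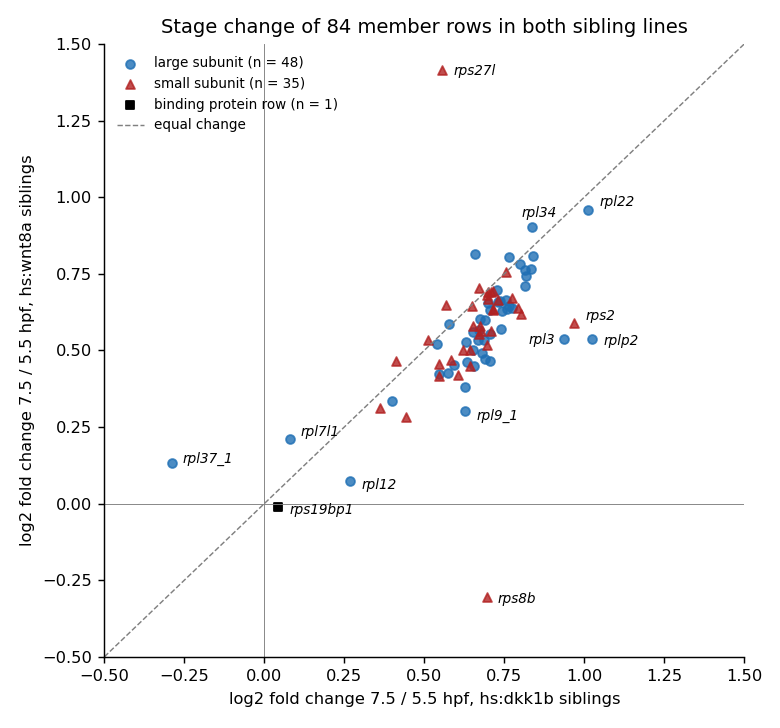
Log2 fold change from 5.5 to 7.5 hpf of each of the 84 rows in hs:dkk1b siblings (horizontal) and labelled hs:wnt8a siblings (vertical), with marker shape for the subunit and a dashed line of equal change. The quartiles of the rows are 0.63 and 0.74 on the horizontal axis and 0.47 and 0.66 on the vertical axis, with rpl22 high on both, rps27l high on the vertical axis, and rpl12, rpl7l1 and rps19bp1 near 0.

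Several members are present as 2 or more copies in the zebrafish tables, and for some of them the shares of the copies differed between times. Near-identical copies may share reads in the authors' counting, so shares between copies are uncertain. rpl5, which with rpl11 and 5S ribosomal RNA forms a particle that in mammals binds the p53 regulator MDM2, has the copies rpl5a and rpl5b. By deposited TPM, rpl5a made up 27.0% to 31.9% of the pair in hs:dkk1b siblings at 5.5 hpf and 34.7% to 37.0% at 7.5 hpf, and reached at most 29.4% and at least 33.1% at these times in labelled hs:wnt8a siblings. The ranges did not overlap in either cross, nor in transgenic embryos (26.4% to 31.6% and 35.5% to 37.3% in hs:dkk1b, 27.6% to 27.7% and 32.8% to 36.1% in hs:wnt8a). Gene by gene, rpl5a rose by 0.80 ± 0.14 (SE, edgeR BH-adjusted p = 0.0004) and 0.78 ± 0.14 (SE, BH-adjusted p = 0.000277) on the log2 scale. rpl5b, the more abundant copy, had log2 fold changes of 0.40 ± 0.13 (SE, BH-adjusted p = 0.0236) and 0.33 ± 0.13 (SE, BH-adjusted p = 0.0447). In labelled hs:wnt8a siblings the call for rpl5b was lost with median-of-ratios scaling (adjusted p = 0.065), without the filter (0.0569), by DESeq2 (0.0579) and in a fit of the compared groups alone (0.149). The calls for rpl5b were also lost when single libraries were left out, with adjusted p = 0.0794 without replicate 2 at 5.5 hpf and 0.0892 without replicate 2 at 7.5 hpf in hs:dkk1b siblings, and 0.194, 0.162 and 0.218 without replicates 1 and 3 at 5.5 hpf and replicate 1 at 7.5 hpf in labelled hs:wnt8a siblings. rpl11 rose by 0.57 (adjusted p = 0.00129) and 0.43 (adjusted p = 0.00704).

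The pair rpl22 and rpl22l1, which have opposing roles in blood development in zebrafish and mouse, differed in a similar way. rpl22 made up 32.7% to 36.3% of the pair at 5.5 hpf and 38.2% to 45.3% at 7.5 hpf in hs:dkk1b siblings, and 32.9% to 34.6% and 39.2% to 40.6% in labelled hs:wnt8a siblings. These ranges were apart in both crosses, while rpl22l1 itself also rose by 0.58 and 0.59 on the log2 scale (edgeR adjusted p = 0.00425 and 0.00264). rpl7l1 was paired with rpl7 by name alone, and whether its product is part of the mature ribosome was not checked. It made up 15.4% to 18.3% of that pair at 5.5 hpf and 9.85% to 12.4% at 7.5 hpf in hs:dkk1b siblings. In labelled hs:wnt8a siblings rpl7l1 made up 15.7% to 17.1% and 12.0% to 13.5%. Its own level stood at 172, 172 and 183 CPM and then 166, 225 and 166 CPM in hs:dkk1b siblings (log2 fold change 0.08 ± 0.11 SE, BH-adjusted p = 0.625), while rpl7 rose by 0.77 and 0.64. rps26 and rps26l both rose, by 0.57 and 0.72 in hs:dkk1b siblings and 0.65 and 0.69 in labelled hs:wnt8a siblings, and so did rps27.1 (0.70 and 0.69) and rps27.2 (0.58 and 0.47). The rows rps8b, rpl37_1 and rpl9_1 made up at most 0.31%, 0.52% and 1.87% of their pairs by name in siblings. Whether rpl37_1 and rpl9_1 are copies is uncertain, since a second source of gene names calls them COA1 and RFC1.

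The order of the members by size of change was similar in both crosses, which share no library. Over the 82 rows with a mean of at least 10 CPM, the log2 fold changes of hs:dkk1b siblings and labelled hs:wnt8a siblings had a Pearson correlation of 0.64 and a Spearman correlation of 0.71, and those of both transgenic groups 0.66 and 0.48. These are correlations across genes, which are not independent replicates and share length and base composition. At the other end from rpl22 and rpl35a, 10 rows were among the last 20 in all 4 comparisons, among them rpl12, rpl7l1, rpl5b, rps20, rps14 and rpl11.

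The difference of the stage change between the crosses was tested itself. Cross, heat shock and the wnt8a_1 signal in labelled hs:wnt8a siblings cannot be told apart in it. In labelled hs:wnt8a siblings against hs:dkk1b siblings, 0 of the 84 rows and 0% of all genes passed the threshold by edgeR, and DESeq2 called 0 rows, with 2 rows lower at an unadjusted p under 0.05 by each tool, where edgeR gave 4.16% of all genes. The median difference was −0.09 on the log2 scale with a median SE of 0.16, and 72 of 84 rows were below 0, while 52.5% of all genes were above 0. Leaving out single libraries moved this median between −0.17 and −0.03, with −0.03 without replicate 2 of the hs:dkk1b siblings at 7.5 hpf and −0.05 without replicate 2 of either sibling group at 5.5 hpf. The smallest adjusted p was 0.457, for rpl3 (−0.40 ± 0.17 SE), and rplp2 differed by −0.49 ± 0.22 (SE, BH-adjusted p = 0.475). With total counts alone the median difference was 0.01 and 45 of the 84 rows were above 0, while the median over all genes moved from 0.02 to 0.13, so the members lay below all genes under both scalings.

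Levels were also compared between siblings of both crosses at each time. Cross and heat shock (37 °C for 60 minutes or 39 °C for 30 minutes) cannot be told apart in this comparison. The wnt8a_1 signal goes with them at 5.5 hpf, at 392 to 721 CPM in labelled hs:wnt8a siblings and 5.06 to 7.62 CPM in hs:dkk1b siblings. The part of that signal was not tested. At 5.5 hpf the labelled hs:wnt8a siblings had a median member log2 fold change of −0.14 against hs:dkk1b siblings, with 74 of 84 rows below 0, where 47.9% of all genes were above 0. By edgeR 0 rows passed the threshold, against 7.73% of all genes in either direction. At an unadjusted p under 0.05, 13 of 84 rows were lower, a share close to the 14.0% of all genes. The count was 5, 16 and 7 without replicate 1, 2 or 3 of the hs:dkk1b siblings. It was 3, 19 and 8 without replicate 1, 2 or 3 of the labelled hs:wnt8a siblings. DESeq2 called 2 rows lower, where it called 1193 of 18358 genes lower. Without replicate 2 of the hs:dkk1b siblings, the library with the highest maternal sum, edgeR called 4 rows and 1167 of 19471 genes lower. For the counts at an unadjusted p without single libraries, shares over all genes are not given. rps26, whose product lies at the mRNA exit channel, came nearest in edgeR, at 122, 106 and 113 CPM in hs:dkk1b siblings and 83.6, 90.9 and 89.0 CPM in labelled hs:wnt8a siblings. These values did not overlap, with a log2 fold change of −0.37 ± 0.12 (SE, BH-adjusted p = 0.0566). Chaperone transcripts differed between the same libraries, with 20 tested genes summed at 25732 to 30265 CPM in hs:dkk1b siblings and 46193 to 60936 CPM in labelled hs:wnt8a siblings. Their part in the result was not tested.

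At 7.5 hpf the median was −0.24, and 80 of 84 rows were below 0, where 48.6% of all genes were above 0. Again 0 rows passed the threshold by edgeR, against 1.77% of all genes, and 36 were lower at an unadjusted p under 0.05, against 8.39%. That count depended on single libraries. It was 5, with a median of −0.17, without replicate 2 of the hs:dkk1b siblings, 10 and 13 without replicate 2 or 3 of the labelled hs:wnt8a siblings, and 54 without their replicate 1. DESeq2 called 6 rows lower, where it called 438 of 17980 genes lower. Without replicate 1 of the labelled hs:wnt8a siblings, edgeR called 2 rows and 261 of 19439 genes lower. Here too, shares over all genes are not given for the counts at an unadjusted p without single libraries. The libraries did not overlap and were lower in labelled hs:wnt8a siblings for 43 rows, as for 11.7% of all genes. rpl35a had the smallest adjusted p, with 363, 421 and 369.7 CPM in hs:dkk1b siblings and 299, 291 and 293 CPM in labelled hs:wnt8a siblings (log2 fold change −0.38 ± 0.11 SE, BH-adjusted p = 0.0829). As a share of counts the members stood at 5.09% to 5.55% and 4.41% to 4.49% in these groups, a ratio of 0.849 without overlap. At 5.5 hpf the ratio was 0.855 and the libraries overlapped. The summed chaperones were at 29683 to 46243 and 29414 to 47822 CPM at 7.5 hpf and overlapped.

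To ask whether Wnt inhibition altered the members, hs:dkk1b transgenic embryos were compared with their siblings. At 5.5 hpf 0 of 84 rows passed the threshold by edgeR or DESeq2, and 0.0513% of all genes were called by edgeR. No row had an unadjusted p under 0.05, against 1.42% of all genes. The libraries of all 84 rows overlapped, where 1.77% of all genes were higher and 2.34% lower without overlap. The median log2 fold change was 0.03 with a median SE of 0.12, and the 82 rows of at least 10 CPM ranged from −0.08 to 0.17. Single libraries decided the sign of this median, which was −0.03 without replicate 3 of the transgenic embryos, −0.02 without replicate 2 of the siblings and 0.11 without replicate 2 of the transgenic embryos. rplp2, with the smallest unadjusted p, differed by 0.17 ± 0.16 (SE, unadjusted p = 0.287).

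At 7.5 hpf 0 rows passed by either tool, where 0.154% of all genes did by edgeR. The median was −0.09, and 82 of 84 rows were below 0, against 51.4% of all genes above 0. Without replicate 2 of the siblings 26 rows were above 0, and without replicate 2 of the transgenic embryos 30. The sign was not particular to the members. Above 0 were 7 of 70 ribosome assembly factor genes, 2 of 12 RNA polymerase I genes and 8 of 41 translation initiation factor genes. Of 17 growth control genes, 12 were above 0. rpl29, a protein of the large subunit surface, stood at 335, 398 and 322 CPM in siblings and 324, 268 and 264 CPM in transgenic embryos (log2 fold change −0.30 ± 0.12 SE, edgeR unadjusted p = 0.0204, adjusted p = 1). rpl38, which in the mouse affects the translation of Hox mRNAs, stood at 291, 378 and 304 CPM in siblings and 306, 243 and 259 CPM in transgenic embryos (−0.27 ± 0.12 SE, unadjusted p = 0.0335, adjusted p = 1). For both genes the groups overlapped through replicate 1, and these 2 were the only rows at an unadjusted p under 0.05, against 2.67% of all genes. The median moved between −0.19 and −0.02 as single libraries were left out, with −0.19 and −0.02 without replicate 1 or 2 of the transgenic embryos and −0.03 without replicate 2 of the siblings, and was −0.22 without both replicate 1 libraries. The effect at 7.5 hpf minus that at 5.5 hpf had a median of −0.13 (−0.21 to −0.05 as single libraries were left out), with 0 rows called by edgeR or DESeq2, 0% of all genes called by edgeR, and 1 row, rpl29, at an unadjusted p under 0.05 (−0.41 ± 0.17 SE), against 0.872% of all genes.

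Wnt activation was examined in the same way. At 5.5 hpf 0 rows and 0% of all genes passed by edgeR in hs:wnt8a transgenic embryos against labelled siblings, and DESeq2 called 0 rows and 5 genes. The median was −0.11 with a median SE of 0.13, 80 of 84 rows were below 0 against 49.1% of all genes above 0, and 23 rows were lower without overlap, as for 11.2% of all genes. Without replicate 2 of the labelled siblings the median was −0.05 and 19 rows were above 0, and without replicate 1 of the transgenic embryos it was −0.07 with 22 rows above 0. The only row at an unadjusted p under 0.05, against 3.33% of all genes, was rps8b. It stood at 0.514, 1.28 and 1.02 CPM in labelled siblings and 0.0697 and 0.470 CPM in transgenic embryos, where the lowest library held 1 count (log2 fold change −1.76 ± 0.60 SE). As a share of counts the members stood at 2.29% and 2.35% in transgenic embryos against 2.41% to 2.88% in labelled siblings, a ratio of 0.897 without overlap, and summed chaperones were higher in the transgenic libraries (64513 and 66030 CPM against 46193 to 60936 CPM). The part of the chaperones in this result was not tested, nor was that of the wnt8a_1 signal in the labelled siblings (392 to 721 CPM).

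At 7.5 hpf 0 rows passed by edgeR or DESeq2, where 0.0974% of all genes were called by edgeR, and 0 were at an unadjusted p under 0.05, against 1.58%. The median was 0.06, with 80 of 84 rows and 50.8% of all genes above 0. It was 0.12 without replicate 1 and 0.03 without replicate 2 or 3 of the labelled siblings. Replicate 1 of the transgenic embryos stayed in the fit without replicate 1 of the labelled siblings. Both stood apart in the germ cell sum, at 88.8 and 92.2 CPM against 48.0 to 54.5 CPM in the other libraries of this cross and time. The median was −0.01 without replicate 2 of the transgenic embryos. With total counts alone the median was 0.01, with 52 rows above 0, where the median over all genes was −0.05. The row with the smallest unadjusted p was rps27.2, which differed by 0.14 ± 0.11 SE. The effect at 7.5 hpf minus that at 5.5 hpf had a median of 0.16 (0.09 to 0.24 as single libraries were left out) with a median SE of 0.17, and 80 rows were above 0, as were 52.6% of all genes. By edgeR 0 rows passed, against 0.00513% of all genes, and 1 row, rps8b, was at an unadjusted p under 0.05, against 1.74%. In this fit, which took no libraries as paired, 0 of the 84 rows were called in any of the 4 transgene comparisons or in either difference over time. Effects of the size of its median SEs, 0.12 to 0.17, were not detectable in it at this replication. With replicate number as a block, 0 rows were called as well.

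**Figure D4:**
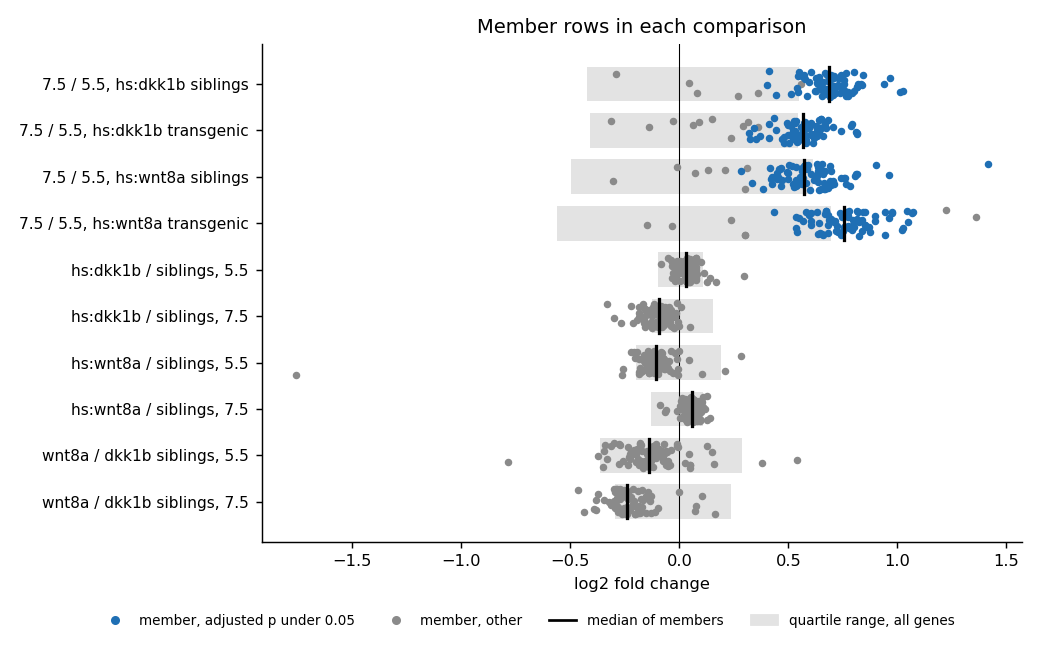
Log2 fold changes of the 84 rows in 10 comparisons, with a black bar at the members' median, blue for an adjusted p under 0.05 in edgeR and grey otherwise, over the quartile range of all 19504 genes (light band). Most members sit to the right of 0 in the 4 stage comparisons (medians 0.57 to 0.75). In the other 6, where no row was called, the medians lie within −0.24 to 0.06 and single rows between −1.76 and 0.54.

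The genes that act with the ribosomal proteins did not all move with them. Of the 5 tested ribosomal proteins and fusion genes that the name rule leaves out, 4 rose in both sibling groups, among them faua, encoding a ubiquitin-like fusion to a small subunit protein (log2 fold changes 0.96 and 0.90), rplp2l (0.80 and 0.65) and rack1, a scaffold on the small subunit (0.41 and 0.29). faub had values of −0.05 and −0.51 that did not pass (edgeR adjusted p = 0.897 and 0.0867). The row RPL37A, written in capitals and not taken by the rule, also rose (0.85 and 0.72). Of the 74 mitochondrial ribosomal protein genes 30 were higher and 0 lower in hs:dkk1b siblings (median 0.30), and 36 higher and 2 lower in labelled hs:wnt8a siblings (median 0.34). Over all genes 15.6% were higher and 15.4% lower in hs:dkk1b siblings, and 21.8% and 18.4% in labelled hs:wnt8a siblings. In hs:dkk1b siblings mrpl11 rose by 1.11, mrps9 by 0.75 and mrps7 by 0.64.

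Translation factors were mixed. Their counts, and those of the TOP list below, are to be read against the shares of all genes given above. Of 41 initiation factor genes 17 were higher and 3 lower in hs:dkk1b siblings (median 0.30), and 20 higher and 2 lower in labelled hs:wnt8a siblings (median 0.34). eif2s1b, a subunit of the factor that carries the initiator tRNA, rose by 1.06 and 0.96, while eif4g2b changed by −0.69 and −0.45. Of 12 elongation factor genes 4 were higher and 0 lower, and 3 higher and 4 lower, with eef1db rising by 1.04 and 1.15. Other mRNAs known from mammals to carry the TOP tract, a list of 17 tested genes that also holds faua, faub and rack1, had 7 higher and 2 lower, and 7 higher and 4 lower. naca rose by 0.47 and 0.39, and nap1l4a changed by −2.05 and −2.18. The medians of the TOP list were 0.14 and −0.09.

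Genes for building ribosomes rather than forming them were called no more often than all genes in siblings. Of 70 assembly factor genes 5 were higher and 9 lower in hs:dkk1b siblings (median −0.03), and 9 higher and 10 lower in labelled hs:wnt8a siblings (median 0.03), where 15.6% and 15.4% of all genes, and 21.8% and 18.4%, were higher and lower. In hs:dkk1b transgenic embryos 0 were higher and 19 lower (median −0.18), where 15.0% of all genes were lower, and in hs:wnt8a transgenic embryos 9 were higher and 9 lower, where 18.1% were lower. ncl, encoding nucleolin, was at 4386 CPM at 5.5 hpf and 2772 CPM at 7.5 hpf in hs:dkk1b siblings (means of 3 libraries, log2 fold change −0.66 ± 0.11 SE, edgeR BH-adjusted p = 0.000245), and changed by −0.65 in labelled hs:wnt8a siblings. nob1, which cuts the last precursor of small subunit RNA, changed by −0.64 and −0.48, and nolc1 by −0.68 and −0.52. The smaller lists that follow are to be read against the same shares of all genes. Of 12 genes for RNA polymerase I and its factors, 2 were higher and 1 lower, and 3 higher and 1 lower. ubtf, a factor of ribosomal DNA transcription, changed by −0.78 and −0.80, whereas rrn3 rose by 0.41 and 0.44. Among 17 growth control genes of the Myc and TOR pathways 6 were higher and 2 lower in each sibling group, with mych at −0.82 and −0.45, and mtor at 0.88 (adjusted p = 0.00318) and −0.08 (adjusted p = 0.787). Of 10 genes of the p53 pathway, a list that holds rps27l, 0 were higher and 2 lower, and 2 higher and 1 lower.

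**Figure D5:**
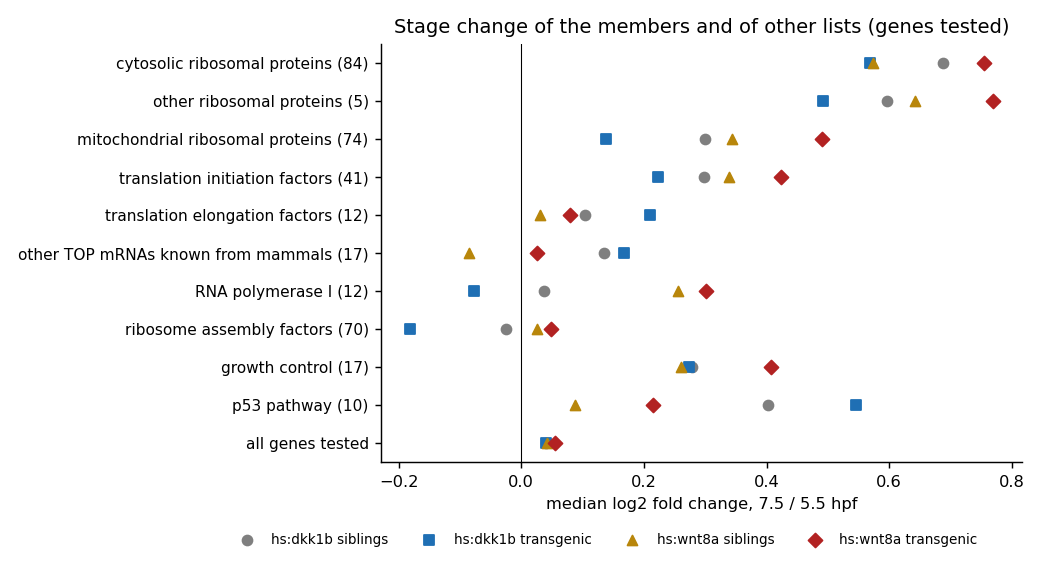
Median log2 fold change from 5.5 to 7.5 hpf of the 84 rows, of 9 other gene lists and of all genes tested, with the number of genes tested in brackets and a symbol for each cross and genotype. The members (0.57 to 0.75) and the other ribosomal proteins (0.49 to 0.77) have the highest medians, except in hs:dkk1b transgenic embryos, where the p53 list (0.55) comes between them, and the assembly factors lie between −0.18 and 0.05.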

How the data were processed

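For each library the authors deposited whole-number read counts of 31743 genes; how reads were selected, aligned and counted before deposit, and with which strand setting, is not given in the sources used here. The deposited TPM values were used to set genes side by side, and the deposited RPKM values were not used. The submitters' processing notes name edgeR and the GRCz11 genome build.

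The members and the other gene lists were chosen with earlier results of these data known. One model over the 8 groups was run in edgeR 4.0.16 under R 4.3.3 (quasi-likelihood F test, TMM scaling, filterByExpr, 15 residual degrees of freedom), with p-values adjusted by the Benjamini-Hochberg method over all 19504 genes tested and 0.05 as the threshold. SEs were derived from each log2 fold change and its F statistic, and CPM values used TMM factors. Tables were summarised with Python 3.11.15, pandas 2.3.3, numpy 2.4.6 and scipy 1.17.1, and the fit was tested on simulated counts. Libraries held 13845788 to 20467185 counts. Over 22 replicate pairs the chi-square of the counts was 3.08 to 54.0 per degree of freedom, above sampling noise, and every library was counted once.

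Named members were a fixed set by role, the 6 largest rises and 4 lowest changes in each sibling group among rows of at least 10 CPM, the 3 smallest p-values in each transgene comparison, and all copies. From each other list up to 3 genes were named, by adjusted p in hs:dkk1b siblings. Genes outside this rule, namely rack1, faub and members singled out by TPM rank or order of change, were picked with their values in view. Some genes of the rule are not reported here.

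The labels give groups the same replicate numbers. Deviations of transgenic and sibling libraries with the same number correlated at 0.46 to 0.71 in hs:dkk1b and 0.31 to 0.73 in hs:wnt8a at 7.5 hpf. In hs:wnt8a at 5.5 hpf the correlations were −0.068 and −0.087. Between the times, deviations of same-numbered libraries correlated at 0.17 to 0.31 in hs:dkk1b siblings, and in the other groups at −0.30 to 0.25. The main fit took no libraries as paired. The replicate block paired same-numbered libraries within every cross, also where the correlation was low or negative. Alternatives were other scalings and filters, DESeq2 1.42.0, fits of the compared groups alone or with a replicate block, and leaving out single libraries.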

Additional observations from a re-analysis of the deposited data

How the results depend on the processing

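For 82 values of single named genes, 1200 comparisons with an alternative kept the direction and the side of the threshold, 21 fell below the threshold, 5 passed it newly and 9 changed sign. Medians over the members near 0 changed sign too, in hs:dkk1b against siblings at 5.5 hpf, in hs:wnt8a against siblings at 7.5 hpf and in the difference of the stage change between crosses, as given above. With total counts alone the median stage change of the members was 0.81 in hs:dkk1b siblings, 0.80 in labelled hs:wnt8a siblings and 0.97 in hs:wnt8a transgenic embryos, where the median over all genes also moved, to 0.16, 0.27 and 0.27. In siblings of both crosses at 5.5 hpf, total counts alone gave 14 members lower (median −0.26, all genes −0.14), where 1482 of 19504 genes were lower. DESeq2 gave 2 members lower, and leaving out single libraries gave 0 to 4. At 7.5 hpf DESeq2 gave 6 and leaving out single libraries 0 to 2. Without both replicate 1 libraries of the hs:dkk1b cross at 7.5 hpf, the effect of hs:dkk1b at 7.5 minus 5.5 hpf had a median of −0.25. The cause was not tested in these cases.

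TPM values divide counts by gene length, so short genes weigh more in their sum than in a sum of counts. As a share of summed TPM, the members stood at 6.48% and 10.6% in hs:dkk1b siblings at 5.5 and 7.5 hpf. Their share was 6.58% and 10.1% in hs:dkk1b transgenic embryos, 5.55% and 9.30% in labelled hs:wnt8a siblings, and 4.97% and 9.19% in hs:wnt8a transgenic embryos. Without 37 mitochondrial rows in the total, the share was 2.38% in hs:wnt8a transgenic embryos at 5.5 hpf and 4.53% in labelled hs:wnt8a siblings at 7.5 hpf.

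Leaving out single libraries gave 75 to 77 members higher in hs:dkk1b siblings, 72 to 76 in labelled hs:wnt8a siblings, 63 to 75 in hs:dkk1b transgenic and 74 to 79 in hs:wnt8a transgenic embryos. The single genes that changed sign were near 0. Leaving out single libraries, rps19bp1 ran from −0.015 to 0.11 in hs:dkk1b siblings (−0.00442 without replicate 3 at 5.5 hpf) and from −0.046 to 0.023 in labelled hs:wnt8a siblings, rpl7l1 from −0.079 to 0.16 in hs:dkk1b siblings, and rpl12 from −0.076 to 0.15 in labelled hs:wnt8a siblings. In labelled hs:wnt8a siblings rps19bp1 was at 0.22 with total counts alone and 0.000949 without the filter.

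With the replicate block the counts of members higher stayed at 77, 77, 73 and 77 in the 4 stage comparisons, 0 members were called in every transgene comparison, and no call of a named member changed. Calls over all genes did move with the block, from 1 higher and 9 lower to 3 and 45 in hs:dkk1b at 5.5 hpf, from 1 and 29 to 31 and 115 at 7.5 hpf, from 0 and 0 to 22 and 91 in hs:wnt8a at 5.5 hpf, and from 1 and 18 to 20 and 55 at 7.5 hpf. The block left 11 residual degrees of freedom for stage changes and 7 for transgene effects. Siblings of both crosses could not be blocked, since their numbers span separate crosses.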

Other observations

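Outside the 84 rows, the genes whose log2 CPM over the 23 libraries was most like the mean of the members included RPL37A (Pearson correlation 0.985), rplp2l (0.984), fkbp1aa (0.983) and atp5l (0.981), of 8468 genes compared. The first 2 are ribosomal protein rows that the name rule does not take. fkbp1aa encodes a member of the FK506-binding prolyl isomerases and rose by 0.52 and 0.59 on the log2 scale in hs:dkk1b and labelled hs:wnt8a siblings. atp5l encodes a subunit of the mitochondrial ATP synthase and had values of 1.15 and 1.00. The libraries share their stage difference, so these correlations describe the stage change more than anything else, and no p is given.

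The mitochondrial ribosomal protein genes had 0 called genes in each transgene comparison by edgeR, as did the members. At 7.5 hpf in hs:dkk1b transgenic embryos against siblings their median log2 fold change was −0.11, with 6 of 74 genes above 0, beside −0.09 with 2 of 84 for the cytosolic members.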
